A study of Mus musculus with 39 samples.

Results

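The 8 libraries described here are the single blastomeres of 2 separated 4-cell mouse embryos of the second batch, called embryo 7 and embryo 6, with 4 sisters each. They were chosen by their column names, which carry the embryo number and the blastomere number, and they are 8 of the 39 libraries and 2 of the 19 embryos of the series. All embryos were wild type (WT), with no allele or treatment given, and each blastomere became a library of its own by Smart-seq2, a full-length cDNA method for picogram amounts of RNA. The rest of the series holds 12 blastomeres of 3 separated 4-cell embryos of batch 1, 10 blastomeres of 5 separated 2-cell embryos, 4 intact 4-cell embryos and 5 intact 2-cell embryos. The labels give neither strain, sex nor litter, and do not say which sisters share a 2-cell mother cell or which blastomere of one embryo matches which of the other. No cell was made into a pair of libraries, so a difference between cells and a difference between libraries cannot be told apart in any value below.

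Cleavage divides the cytoplasm of the egg among ever smaller cells without growth, while maternal RNA is degraded and the genome of the embryo takes over. Sisters therefore start with a share of the same maternal store and then transcribe on their own. Uneven partition, bursts of transcription and cell cycle position can all leave them with different amounts of an RNA. Blastomeres of the mouse at this stage have been described as unequal in regulators tied to the later choice between inner cell mass and trophectoderm, among them Carm1, a histone arginine methyltransferase, and Sox21, an SRY-box factor.

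Depth set the libraries apart before any gene was looked at. Blastomeres 1, 2, 3 and 4 of embryo 7 had 31.6, 2.02, 29.1 and 24.1 M counts (M, 1e+06 counts), and those of embryo 6 had 22.4, 28.5, 25.1 and 27.1 M. Blastomere 2 of embryo 7 is thus the shallow library, and it also had the fewest genes with a count, 11182 against 14227 to 16518 in the other 7. It is shown beside its sisters throughout but kept out of the spread values unless said otherwise. Batch 1 blastomeres had 2.404 to 5.23 M counts and 7939 to 9936 genes with a count.

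The libraries carried the transcripts of early embryos. All 17 markers of the preimplantation embryo had counts, and together they made up 13589 to 15211 counts per M (CPM) in embryo 7 and 10493 to 11468 CPM in embryo 6. Of markers of other cells, 9 of 20 genes of cumulus and granulosa cells had a count, with sums of 37.8 to 81.2 CPM in embryo 7 and 69.3 to 106 CPM in embryo 6, mostly from Amhr2. Of the oviduct markers 5 of 10 had a count (99.2 to 149.9 CPM in embryo 7, 26.5 to 83.2 CPM in embryo 6), mainly Epcam and Cd24a. Blood markers (6 of 11) summed to 2.48 to 23.4 CPM in embryo 7 and 0.580 to 5.22 CPM in embryo 6, and sperm markers (6 of 14) to 1.49 to 10.4 CPM in embryo 7 and 0.210 to 11.9 CPM in embryo 6.

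Sisters were on the whole closer to each other than to blastomeres of the other embryo. With all 8 libraries thinned at random to 2.02 M counts, the median Pearson correlation of log2 CPM over 2793 genes was 0.883 among the sisters of embryo 7, 0.894 among those of embryo 6 and 0.853 over the 16 pairs that cross the embryos, whose range was 0.817 to 0.878. In embryo 7 the closest pair was blastomeres 1 and 4 at 0.919, and the farthest was 1 and 3 at 0.866. In embryo 6 the closest pairs were 3 with 4 at 0.913 and 1 with 2 at 0.911, and the other pairings lay at 0.875 to 0.895. The lowest sister pairs thus overlap with the highest pairs across embryos. These are descriptions across genes of libraries that share a batch.

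**Figure D1:**
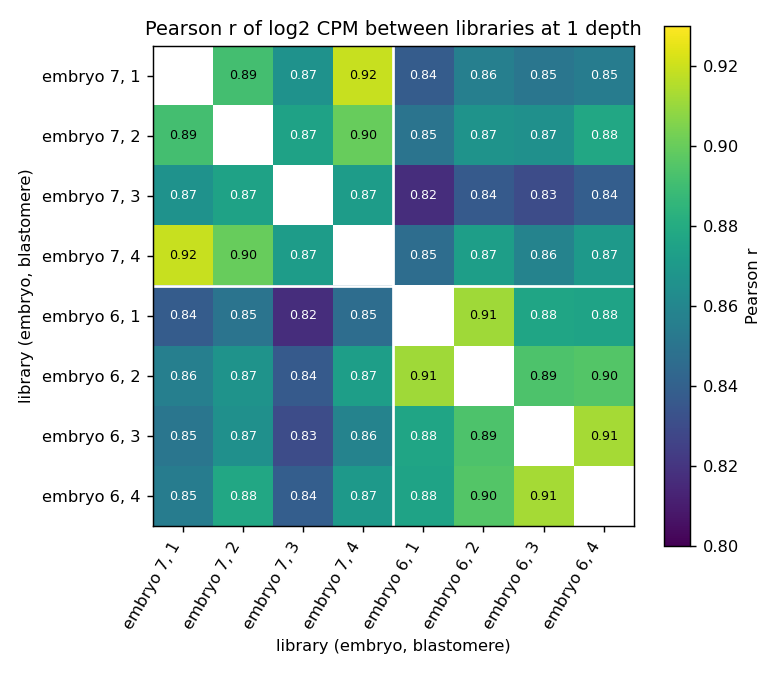
Pearson correlation of log2 CPM between each pair of the 8 libraries, thinned to 2.02 M counts, by embryo and blastomere, with white lines between the embryos. Within-embryo pairs reach 0.919, and the pairs that cross the embryos lie between 0.817 and 0.878, lowest for blastomere 3 of embryo 7.

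Thinned to the same depth, the shallow blastomere 2 of embryo 7 was no farther from its sisters than they were from each other. Its correlation was 0.891 with blastomere 1, 0.875 with blastomere 3 and 0.8995 with blastomere 4, and its median with the sisters of embryo 6 was 0.866. The other 3 blastomeres of embryo 7 had a median of 0.849 with embryo 6. In 51.7% of the 2793 genes blastomere 2 was the highest or the lowest of the 4 sisters, against 58.0% for blastomere 3 and 43.6 to 58.0% over all 8 libraries. Single genes in it carry a larger counting error than in the deep libraries.

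The spread of a gene was taken as the standard deviation (SD), over the sisters of an embryo, of log2 CPM, for the 2793 genes with a mean of at least 50 CPM in both embryos. The median SD was 0.304 in embryo 7 without blastomere 2, 0.337 with it, and 0.328 in embryo 6. Between the highest and the lowest sister the median gene differed 1.49-fold in embryo 7 (3 sisters) and 1.65-fold in embryo 6 (4 sisters). Counting error alone gave a median SD of 0.0235 in embryo 7 and 0.0252 in embryo 6, far below the spread between the deep libraries. Counting error covers the sampling of reads and not the copying of RNA into cDNA or the PCR before it, since the reads carry no molecular tags.

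Spread fell with level. Among genes of 20 to 50 CPM, which were left out of the 2793, the median SD was 0.601 in embryo 7 and 0.558 in embryo 6. It was 0.399 in embryo 7 and 0.414 in embryo 6 at 50 to 100 CPM, and 0.234 in embryo 7 and 0.277 in embryo 6 at 200 to 500 CPM. Above 1000 CPM it was 0.187 in embryo 7 and 0.241 in embryo 6, the flattest part of the curve. A difference of more than 4-fold among deep sisters was seen in 44 genes of embryo 7 (1.58%) and 73 of embryo 6 (2.61%), while 585 genes stayed within 1.5-fold in both embryos.

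**Figure D2:**
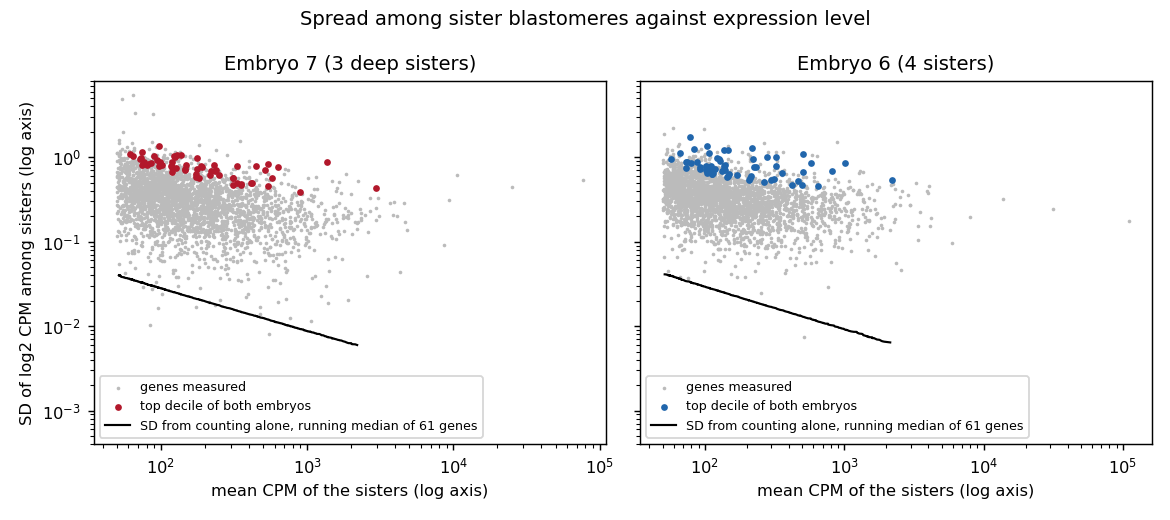
Spread of each of 2793 genes among sisters, as the SD of log2 CPM, against its mean CPM, both on log axes, for embryo 7 (3 deep sisters, left) and embryo 6 (4 sisters, right), with the 60 genes of the top decile of both embryos in colour and the SD from counting alone as a line. Spread falls with level, to a median of 0.187 in embryo 7 and 0.241 in embryo 6 above 1000 CPM, and most genes lie well above the line.

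Exactly 6 genes (0.215% of the 2793) differed by more than 4-fold among the deep sisters of both embryos. They were Myc, Tmem37, Enpp3, Pecam1, Cpeb2 and Sp6. Myc, the growth-promoting bHLH factor, had 117, 20.3, 0.135 and 46.2 CPM in blastomeres 1 to 4 of embryo 7 and 12.4, 14.2, 114 and 252 CPM in those of embryo 6. In embryo 6 blastomeres 3 and 4 thus held most of the Myc RNA, and in embryo 7 blastomere 1 had the most and blastomere 3 nearly none. Tmem37, a small membrane protein gene, had 0.032, 112, 9.94 and 182 CPM in embryo 7 and 119, 175, 91.1 and 42.2 CPM in embryo 6.

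To compare genes of different level, the excess spread of a gene was computed as its log2 SD minus the trend at its level, so that a value of 1 stands for an SD 2 times that of typical genes. A gene was called of high spread in an embryo when its excess was in the top decile, which is 279 genes or 9.99% of the 2793 by construction. In both embryos 60 genes, 2.15%, were of high spread. That is 21.5% of the genes called in embryo 7, against 9.99% of all genes. Across all genes the excess spread of one embryo said little about that of the other, with Pearson r = 0.08 and Spearman rho = 0.09. Genes are not independent replicates, and both embryos share a batch.

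**Figure D3:**
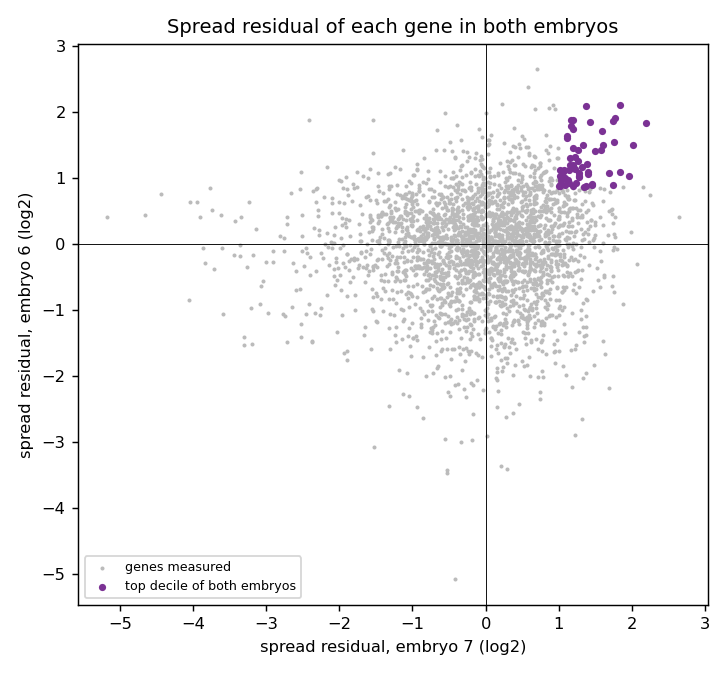
Excess spread (spread residual: log2 SD minus the trend at the gene's level) of 2793 genes in embryo 7 (x axis) and embryo 6 (y axis), with lines at 0. The 60 genes in the top decile of both embryos are coloured, and the cloud has r = 0.08.

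Which genes counted as high depended on how level was taken and on the shallow library. The trend above runs on the mean of log2 CPM, which is low for a gene nearly absent from a sister, so Myc had an excess of only 0.01 in embryo 7 (1.99 in embryo 6) and Tmem37 had -0.84 in embryo 7 (1.30 in embryo 6). With a trend on the log2 of mean CPM, an alternative chosen after seeing the data, 59 genes were of high spread in both embryos, 51 of them among the 60, and those added were Enpp3, Myc, Nupr1, Pecam1, Rnf24, Satb1, Spc25 and Tmem37. With blastomere 2 added to embryo 7 the number was 63, of which 38 were among the 60. At full depth blastomere 2 lay inside the range of its deep sisters for 48 of the 60 genes (80.0%) and for 1328 of all 2793 (47.5%). Of the other measured genes, 981 were below all deep sisters and 484 above them, so the library leaned to lower values at full depth. The contrast between the 60 genes and all genes is a description only, because the 60 were chosen for a wide range among those sisters.

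The 10 named genes with the highest excess spread in both embryos are given first. Sfn (chr4:133600556-133602168, minus strand, GRCm38), which codes for the adaptor 14-3-3 sigma and is a known p53 target, had 674, 1376, 2259 and 1147 CPM in blastomeres 1 to 4 of embryo 7 and 661, 447, 1454 and 1466 CPM in those of embryo 6. It is abundant, a level at which most genes were even, and its excess was 2.20 in embryo 7 and 1.84 in embryo 6. In embryo 6 blastomeres 3 and 4 stood together above 1 and 2. In embryo 7 blastomere 3 was highest and blastomere 1 lowest.

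Rest (chr5:77265491-77286432, plus strand), the repressor of neuronal genes, had 218, 166, 238 and 70.2 CPM in embryo 7 and 164, 138, 605 and 396 CPM in embryo 6. Its excess was 1.76 in embryo 7 and 1.92 in embryo 6, and without blastomere 4 of embryo 7 the lower of the 2 values is -1.41. Rest spread in embryo 7 therefore rests on a single low sister, while in embryo 6 a pair of sisters was high and a pair low. Hand1 (chr11:57828705-57832818, minus strand), a bHLH factor needed in trophoblast giant cells, had 213, 72.8, 117 and 359.5 CPM in embryo 7 and 92.2, 142, 229.9 and 426 CPM in embryo 6. Its sisters formed a graded series in each embryo and no pair shared a level.

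Wtap (chr17:12966796-12994169, minus strand), a subunit of the methyltransferase complex that writes N6-methyladenosine on mRNA, had 264, 397, 833 and 525 CPM in embryo 7 and 686, 414, 1259 and 931 CPM in embryo 6. Ddx39 (chr8:83715177-83726892, plus strand), an RNA helicase of mRNA export, had 455, 496, 854 and 412 CPM in embryo 7 and 248, 448, 685 and 634 CPM in embryo 6. Blastomere 3 was the highest sister for both genes in each embryo, a shared number that the labels do not tie to a position or lineage. The lower excess of Wtap, 1.502 in embryo 6, is 0.88 without blastomere 2 of that embryo. For Ddx39 the other sisters of embryo 7 lay close together, and without blastomere 3 its lower excess is -0.46.

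Isyna1 (chr8:70594373-70597290, plus strand), the enzyme that makes inositol phosphate from glucose 6-phosphate, had 289, 721, 769 and 489 CPM in embryo 7 and 156, 230.2, 532 and 379.5 CPM in embryo 6. Prkar1a (chr11:109649405-109669656, plus strand), a regulatory subunit of protein kinase A, had 188, 75.2, 136 and 49.5 CPM in embryo 7 and 208, 170.1, 75.6 and 56.1 CPM in embryo 6. Blastomere 4 was the lowest sister for Prkar1a in each embryo, and without that of embryo 7 the lower excess is 0.34. Trim13 (chr14:61598247-61605946, plus strand), a ubiquitin ligase, had 287, 119, 101 and 187 CPM in embryo 7 and 33.0, 130.2, 236 and 145 CPM in embryo 6, and its lower excess falls to 0.77 without blastomere 1 of embryo 6. Bex1 (chrX:136213972-136215513, minus strand), a small X-linked adaptor, had 302, 141, 126 and 269.9 CPM in embryo 7 and 278, 84.6, 440.2 and 72.1 CPM in embryo 6. Bex1 thus had a high pair and a low pair in each embryo, but in embryo 7 its excess also rests on blastomere 3, without which the lower value is -0.46.

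**Figure D4:**
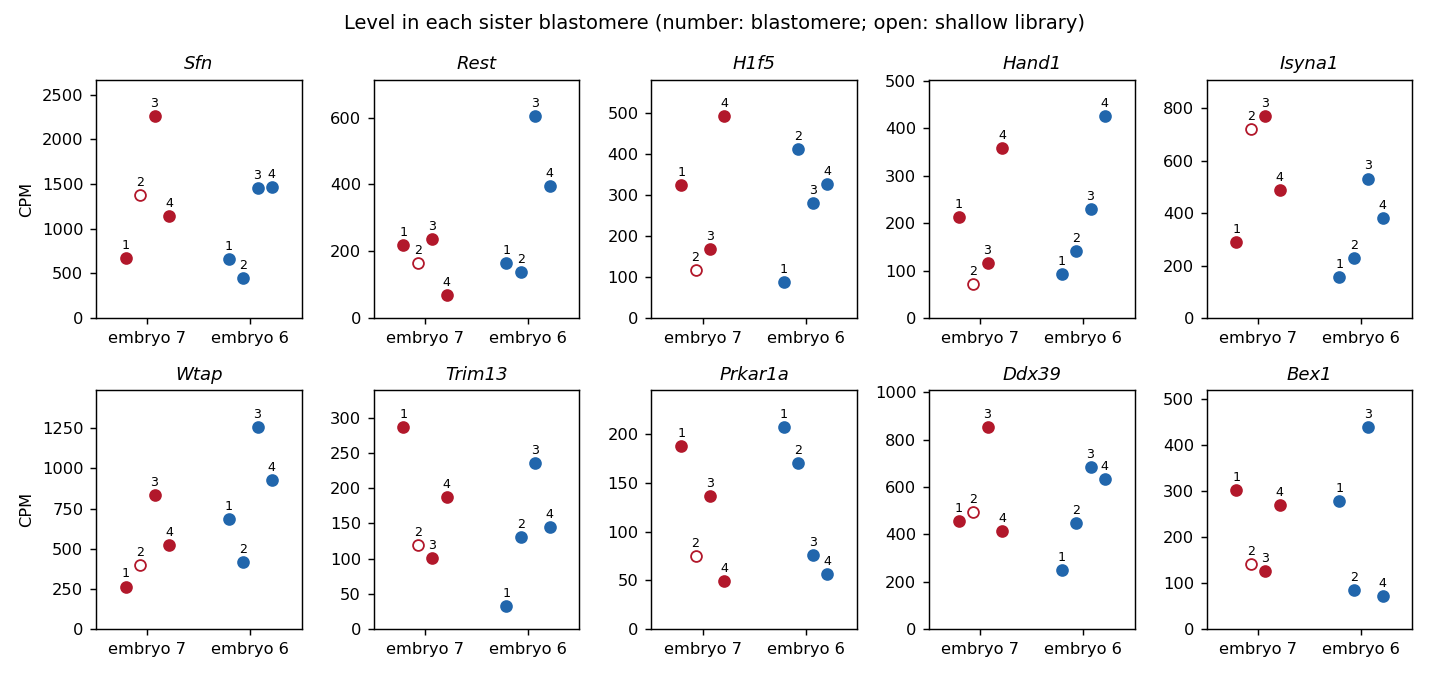
CPM of the 10 named genes of highest spread in both embryos, as 1 point for each numbered blastomere of embryo 7 (left) and embryo 6 (right), with the shallow blastomere 2 of embryo 7 as an open point. Wtap and Ddx39 are highest in blastomere 3 of each embryo, and Bex1 has a high pair and a low pair.

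H1f5, a linker histone, had 325, 118, 168 and 494 CPM in embryo 7 and 87.6, 412, 282 and 327 CPM in embryo 6, with an excess of 1.74 in embryo 7 and 1.86 in embryo 6. A single sister was low in embryo 6, blastomere 1, without which the lower excess is 0.14, while the sisters of embryo 7 were spread out. Ckb, the brain-type creatine kinase, had 136, 41.6, 43.9 and 40.3 CPM in embryo 7 and 77.9, 41.8, 267 and 201 CPM in embryo 6, so that blastomere 1 of embryo 7 alone was high. Ckb is named here, after its values were seen, because it and H1f5 are the high-spread genes whose promoter holds a TATA box, the sequence bound by TBP that is known from yeast and mammals for bursty transcription. The motif TATAAA was sought on the sense strand within 40 to 20 bases before the RefSeq start, and it was found in 2 of the 44 high-spread genes with a promoter in the RefSeq table (4.55%). It was found in 6 of 355 genes of high spread in a single embryo (1.69%), 26 of all 2268 measured genes (1.15%) and 650 of 27025 genes in the table (2.41%). With 2 genes the share carries no weight, and a match is not a bound site. The 250 bases before the start are given 5′ to 3′ on the minus strand (GRCm38.p6, RefSeq), for Ckb chr12:111672339-111672588 and for H1f5 chr13:21780626-21780875, with the motif in capitals, 28 bases before the start in each.
Ckb: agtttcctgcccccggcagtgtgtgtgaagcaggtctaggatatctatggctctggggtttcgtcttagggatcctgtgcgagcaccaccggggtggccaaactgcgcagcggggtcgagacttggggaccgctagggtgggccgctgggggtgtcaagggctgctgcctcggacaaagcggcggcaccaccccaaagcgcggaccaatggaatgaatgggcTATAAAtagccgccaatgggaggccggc
H1f5: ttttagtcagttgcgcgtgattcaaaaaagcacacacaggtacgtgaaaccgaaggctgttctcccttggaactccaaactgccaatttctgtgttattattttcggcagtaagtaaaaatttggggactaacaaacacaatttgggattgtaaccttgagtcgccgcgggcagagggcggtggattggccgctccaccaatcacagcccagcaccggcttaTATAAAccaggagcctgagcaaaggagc

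Other properties of the 60 genes were near those of all genes. In intact embryos 17 of them (28.3%) were more than 4-fold higher at the 4-cell than at the 2-cell stage, against 579 of 2793 (20.7%). Of the 60, 3 were X-linked (5%), against 103 of all (3.69%). Their median longest transcript was 3018.5 bases, against 3120.0 bases for all, among 2759 genes matched to GENCODE M21. Of the 60, 11 belong to any of the gene lists described next.

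At the other end stood the 6 named genes of the lowest excess spread in both embryos. Dhx8, a splicing helicase, had 107, 111, 94.5 and 99.9 CPM in embryo 7 and 92.9, 83.7, 94.4 and 102 CPM in embryo 6. Etf1, the translation release factor, had 574, 473, 562 and 615 CPM in embryo 7 and 750.0, 757, 749.8 and 782 CPM in embryo 6, so that the embryos differed and the sisters hardly did. Trip13, a checkpoint ATPase, ranged from 118 to 189 CPM in embryo 7 and from 163 to 191 CPM in embryo 6. The kinase gene Sgk3 had 62.9 to 98.7 CPM in embryo 7 and 96.3 to 111 CPM in embryo 6, and Fam32a had 130.01 to 173 CPM in embryo 7 and 117 to 137 CPM in embryo 6. Except for Dhx8, the lowest of the sisters of embryo 7 was the shallow blastomere 2 in each of these genes. Fam45a shows that most plainly, with 189, 77.5, 182 and 187 CPM in embryo 7 and 99.96, 93.4, 90.5 and 81.4 CPM in embryo 6. Its higher excess was -1.53 without blastomere 2 and 0.95 with it. With blastomere 2 the value was -0.10 for Trip13 (-1.57 without), -0.48 for Etf1 (-1.53), -0.51 for Sgk3 (-1.75) and -0.73 for Fam32a (-1.65). Of the 6, Dhx8 alone kept its value, at -1.62 with and without that library, so how even the other 5 appear depends on leaving it out. The 6 were chosen for low spread without blastomere 2, so a rise on adding it was favoured by the choice. At full depth blastomere 2 was below all deep sisters for 981 of 2793 genes and above them for 484. These changes are descriptions.

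Of 19 measured regulators of lineage and pluripotency, 3 were of high spread in embryo 7 and 6 in embryo 6, with Hand1 in both. By construction, 9.99% of all genes were of high spread in each embryo. The median excess of the 19 was 0.01 in embryo 7 and 0.43 in embryo 6, against 0.00 in embryo 7 and 0.02 in embryo 6 for all genes. Tead4, which drives the trophectoderm programme, had 38.5, 54.4, 147 and 131 CPM in embryo 7 and 63.9, 163, 138 and 89.1 CPM in embryo 6. Sox15, an SRY-box factor, had 131, 196, 123 and 238 CPM in embryo 7 and 94.8, 99.0, 243 and 137 CPM in embryo 6. The highest sister was thus nearly 4 times the lowest for Tead4 in embryo 7 and less than that in embryo 6 and for Sox15.

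Several well-known regulators were below the level filter, where spread is wide for most genes, and are named after their values were seen. Sox21 had 0, 39.2, 14.7 and 15.1 CPM in embryo 7 and 80.5, 2.49, 0.899 and 66.9 CPM in embryo 6, where a pair of sisters held nearly all of it. Fgf4, the growth factor that later signals from the inner cells, had 32.6, 5.67, 46.2 and 15.7 CPM in embryo 7 and 17.99, 5.80, 167 and 120.1 CPM in embryo 6. Within embryo 6 the sisters rich in Sox21 were blastomeres 1 and 4, and those rich in Fgf4 were 3 and 4, so the pairs differed. Klf4, a pluripotency factor, had 3.64, 39.7, 38.0 and 14.7 CPM in embryo 7 and 46.7, 47.9, 35.4 and 191 CPM in embryo 6. Carm1 had 21.3, 16.5, 11.3 and 7.76 CPM in embryo 7 and 3.5, 26.3, 14.4 and 6.30 CPM in embryo 6. The paraspeckle RNA Neat1 had at most 6.12 CPM in embryo 7 and 2.35 to 41.6 CPM in embryo 6.

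The core factor Pou5f1, which passed the level filter, differed less among sisters than the low-level genes just named. Its range was 1.23-fold among the deep sisters of embryo 7 and 1.96-fold in embryo 6. For the median measured gene it was 1.49-fold in embryo 7 and 1.65-fold in embryo 6. Pou5f1 had 97.8, 140.4, 120.3 and 112 CPM in embryo 7 and 154, 199, 302 and 277 CPM in embryo 6, with no overlap between the embryos. Klf5, another pluripotency factor, had 391, 469, 322 and 330.2 CPM in embryo 7 and 199.5, 147, 135 and 177 CPM in embryo 6, again without overlap and in the other direction. Id3, an inhibitor of bHLH factors, had 95.9, 17.5, 9.94 and 62.1 CPM in embryo 7 and 24.0, 0, 8.58 and 3.95 CPM in embryo 6. Nanog reached 55.1 CPM in embryo 7 and 18.4 CPM in embryo 6. Cdx2, a later trophectoderm factor, had no count in any of the 8 libraries. The list of factors tied to unequal 4-cell blastomeres and of paraspeckle genes had 13 measured genes. None of them was of high spread in embryo 7 and 2 were in embryo 6, beside 9.99% of all genes in each embryo by construction. Their median excess was -0.21 in embryo 7 and 0.21 in embryo 6.

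Among p53 and its targets, 3 of 8 measured genes were of high spread in both embryos, beside 2.15% of all genes. Trp53 itself had 70.5, 149, 196 and 117 CPM in embryo 7 and 38.7, 73.5, 70.0 and 168 CPM in embryo 6. Cdkn1a, the cell cycle inhibitor p21, had 421, 248, 193 and 325 CPM in embryo 7 and 46.1, 66.5, 163 and 94.8 CPM in embryo 6. Tigar, which lowers glycolytic flux, had 278, 386, 552 and 430.0 CPM in embryo 7 and 259.5, 394, 476 and 553 CPM in embryo 6. The 3 did not move together, since in embryo 7 Cdkn1a was highest in blastomere 1, where Trp53 and Tigar were lowest. The mean correlation of the 8 genes was -0.12 in embryo 7 and 0.10 in embryo 6.

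Replication-dependent histones are made in S phase. Of 65 such genes on the list 59 had a count, and only 5 passed the level filter and were measured. Of these 5, 4 were of high spread in embryo 7 and 1 in embryo 6, beside 9.99% of all genes in each embryo by construction. The median excess of the 5 was 1.5 in embryo 7 and 0.41 in embryo 6. H4c4 had 75.1, 594, 440.0 and 528 CPM in embryo 7 and 289.5, 185, 201 and 305 CPM in embryo 6, and H1f2 had 57.8, 87.9, 55.0 and 149 CPM in embryo 7 and 136, 145, 69.1 and 83.9 CPM in embryo 6. Their mRNAs mostly lack a poly(A) tail and the libraries were primed with oligo-dT, so these values cover the primed fraction. Of 40 genes of G2 and mitosis 6 were of high spread in embryo 7 and 7 in embryo 6, and of 33 genes of S phase 3 were in embryo 7 and 2 in embryo 6. Fbxo5 (Emi1), an inhibitor of the anaphase-promoting complex, was high in both, with 119, 62.4, 64.9 and 31.5 CPM in embryo 7 and 125, 66.6, 201 and 22.3 CPM in embryo 6. Slbp, the histone mRNA binding protein, had 318, 319, 485 and 257 CPM in embryo 7 and 135, 158, 234 and 306 CPM in embryo 6.

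Most other lists held about as large a share of high-spread genes as all genes did, which was 9.99% in each embryo by construction. Of 33 proteasome subunits 4 were of high spread in embryo 7 and 3 in embryo 6, and Psmc3 in both, with 81.1, 136, 198 and 75.8 CPM in embryo 7 and 149.5, 112, 101 and 42.0 CPM in embryo 6. Of 28 heat shock genes 1 was in embryo 7 and 3 in embryo 6, and Hsph1 in both, with 151, 105, 25.7 and 115 CPM in embryo 7 and 209.9, 103, 62.5 and 96.7 CPM in embryo 6. Blastomere 3 was the lowest in Hsph1 in each embryo. Of 37 chromatin genes 3 were in embryo 7 and 2 in embryo 6, and the H3K36 demethylase gene Kdm2b in both, with 148, 52.0, 46.6 and 100.3 CPM in embryo 7 and 75.8, 89.7, 227 and 153 CPM in embryo 6. Of 83 nucleolar genes 6 were in embryo 7 and 9 in embryo 6, 1 in both, and of 58 splicing genes 2 were in embryo 7 and 5 in embryo 6, with none in both.

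Small or even lists make up the remainder, again beside 9.99% of all genes in each embryo by construction. Ribosomal proteins had 2 of 82 of high spread in embryo 7 and none in embryo 6, and nuclear genes of oxidative phosphorylation 1 of 48 in each. Maternal oocyte transcripts had 7 measured members with 1 of high spread in each embryo, and the zygotic genes of the 2-cell stage 6 members with 1 in embryo 7 and 3 in embryo 6. Obox6, a homeobox gene of that list, had 1522, 1350.2, 2239 and 1354 CPM in embryo 7 and 655, 1038, 1719.9 and 1655 CPM in embryo 6. Adhesion and polarity genes had 1 of 13 in embryo 7 and 3 in embryo 6, cholesterol and lipid genes 0 of 5 in embryo 7 and 2 in embryo 6, and immediate early and stress genes 0 of 3 in embryo 7 and 1 in embryo 6. Glycolysis had 0 of 5 in each, the X-linked list 1 of 4 in embryo 7 and 0 in embryo 6, and the preimplantation markers 0 of 9 in embryo 7 and 1 in embryo 6. Mitochondrially encoded mRNAs had 0 of 7 in each, the cumulus list had 1 measured gene, Amhr2, and the Y-linked, sperm, blood and oviduct lists had none.

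Genes that vary together were sought as pairs correlated at 0.9 or more among the deep sisters of each embryo. Of 3899028 pairs, 20415 (0.524%) passed in both and also reached 0.9 over the sisters of both embryos pooled, after centring within each embryo. The shares that follow in this paragraph do not use that pooled rule. With 3 sisters in embryo 7 correlations of 0.9 arise easily, and 15.3% of all pairs passed there, against 6.18% in embryo 6 with 4 sisters. Of the pairs that passed in embryo 6, 15.7% also passed in embryo 7, close to the 15.3% of all pairs. Across pairs, the correlation in one embryo had no visible relation to that in the other (r = 0.00377). With all 8 libraries 5.84% of the embryo 6 pairs passed in embryo 7, beside 5.72% of all pairs. So a pair that moved together in one embryo did so in the other about as often as any pair.

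Pairs among the high-spread genes themselves passed in both embryos at a higher share. Of the 60 genes, 58 carry a gene symbol other than a predicted one. Among these, 54 of 1653 pairs (3.27%) reached 0.9 in each embryo, without the pooled rule. By that rule, the share of all pairs was 15.7% of the 6.18% that passed in embryo 6. With all 8 libraries 25 pairs (1.51%) reached 0.9 in each embryo, and the share of all pairs was 5.84% of 6.18%. The set was chosen for its spread in the same libraries, so the shares are descriptions. The pair with the highest smaller correlation was Cdkn1a with Zfp622, a zinc finger gene of ribosome assembly, at 0.994 in embryo 7 and 0.996 in embryo 6. Zfp622 had 227, 152, 74.99 and 142 CPM in embryo 7 and 75.5, 96.9, 228 and 133 CPM in embryo 6. Among the deep sisters of embryo 7 and in embryo 6 the order was that of Cdkn1a, with blastomere 1 at the top in embryo 7 and blastomere 3 at the top in embryo 6. With blastomere 2, which ranked above blastomere 4 for Zfp622 and below it for Cdkn1a, the correlation in embryo 7 was 0.911.

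Ddx39 and Atp6v1c1, a subunit of the vacuolar proton pump, correlated at 0.999 in embryo 7 and 0.993 in embryo 6. Atp6v1c1 had 105, 129, 239.5 and 96.2 CPM in embryo 7 and 57.6, 122, 204 and 161 CPM in embryo 6. The deadenylase gene Cnot8 and the ESCRT ATPase gene Vps4a correlated at 0.997 in embryo 7 and 0.988 in embryo 6. Vps4a had 22.4, 54.4, 69.0 and 92.6 CPM in embryo 7 and 70.0, 31.5, 107 and 112 CPM in embryo 6, and Cnot8 had 191, 273, 333 and 411 CPM in embryo 7 and 269, 172, 347 and 405 CPM in embryo 6. These 2 pairs held when the shallow sister was added, at 0.995 and 0.985 in embryo 7. Blastomere 2 was not used to choose the 6 named pairs, but these 2 are set apart here because they held with it. The other named pairs gave 0.911, 0.818, 0.718 and 0.417 in embryo 7 with blastomere 2. Among the high-spread genes 54 pairs reached 0.9 in each embryo without blastomere 2, and 25 did with it. That the 2 pairs held is therefore a description.

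The other named pairs were less steady. Impact, a regulator of the GCN2 stress kinase, followed Tigar at 0.992 in embryo 7 and 0.988 in embryo 6, and at 0.818 in embryo 7 with blastomere 2. Hand1 followed Pole4, a subunit of DNA polymerase epsilon, at 0.987 in embryo 7 and 0.999 in embryo 6, and at 0.718 in embryo 7 with blastomere 2. Ntmt1, an N-terminal methyltransferase, and Aff1, a scaffold of the super elongation complex, correlated at 0.999 in embryo 7 and 0.988 in embryo 6, and only at 0.417 in embryo 7 with blastomere 2. Aff1 had 209, 282, 50.9 and 153 CPM in embryo 7, so the shallow sister was its highest, while for Ntmt1 blastomere 2 (110.2 CPM) was near the low end of 100.4 to 227 CPM.

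The main direction of difference among sisters was not the same set of genes in both embryos. The first principal component held 64.8% of the variance of the 3 deep sisters of embryo 7 and 48.9% of that of the 4 sisters of embryo 6. With 3 sisters fewer components share the variance than with 4, so these shares cannot be set against each other. In embryo 7 it set blastomere 3 (score 22.1) apart from 1 (-12.6) and 4 (-9.41), and in embryo 6 it set blastomeres 1 (16.7) and 2 (10.005) apart from 3 (-13.6) and 4 (-13.1). The gene loadings of both axes correlated at 0.00579, where the sign is free and was set positive. Blastomere 3 of embryo 7 also had the lowest share of mitochondrially encoded RNA of the 8, 4.21% against 5.56 to 7.99%. It had the lowest share of CT010467.1, an rRNA-like transcript, 4.86% against 8.61 to 12.96%. In embryo 6 blastomeres 1 and 2 had the highest CT010467.1 shares, 12.96 and 11.9% against 9.38 and 9.90%. The part of these shares in the axes was not tested.

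With loadings so nearly unrelated, which end of an axis is set beside which end of the other is arbitrary. The genes named next had the largest loadings of the same sign under the alignment used, so their agreement between the embryos was fixed by the choice and is a description. On the side of blastomere 3 of embryo 7 and blastomeres 1 and 2 of embryo 6 stood Dyrk3, a kinase that dissolves condensates, with 71.9, 50.6, 139 and 43.3 CPM in embryo 7 and 94.3, 120.3, 54.3 and 30.5 CPM in embryo 6. Satb1, a chromatin organiser, had 29.0, 59.1, 99.8 and 32.5 CPM in embryo 7 and 81.4, 56.3, 21.3 and 59.6 CPM in embryo 6. Serinc1, Mbtps1, the site-1 protease, and Psmc3 and Tmem37 were the others on that side. Of these, Tmem37 had 9.94 CPM in blastomere 3 of embryo 7, between its sisters.

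On the opposite side stood Myc, Triap1, Kdm2b, Inka1, Nupr1 and Zfp622. Triap1, an inhibitor of apoptosis regulated by p53, had 173, 93.1, 46.9 and 166 CPM in embryo 7 and 58.6, 74.0, 144 and 165 CPM in embryo 6. Inka1, an inhibitor of the kinase PAK4, had 149, 145, 49.3 and 107 CPM in embryo 7 and 10.9, 32.7, 90.2 and 180.4 CPM in embryo 6. Nupr1, a coregulator induced by stress, had 152, 12.8, 1.69 and 46.1 CPM in embryo 7 and 44.7, 34.0, 127 and 58.7 CPM in embryo 6. Of them, Kdm2b moved with Cdkn1a at 0.99998 in embryo 7 and 0.984 in embryo 6.

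Whole gene groups that moved together among sisters were few. Ribosomal protein mRNAs did so in both embryos, with a mean pairwise correlation of 0.44 in embryo 7 and 0.53 in embryo 6, against 0.00 in embryo 7 and 0.05 in embryo 6 for all genes. Their mean deviation, on the log2 scale, was 0.00, 0.07, -0.15 and 0.15 in blastomeres 1 to 4 of embryo 7 and 0.04, -0.09, -0.16 and 0.21 in those of embryo 6. They were thus lowest in blastomere 3 and highest in blastomere 4 of embryo 6 and among the deep sisters of embryo 7. The shift was smaller than the SD of the median gene. Over all measured genes the mean deviation was -0.01, -0.15, 0.03 and -0.02 in embryo 7 and -0.08, -0.08, 0.08 and 0.07 in embryo 6. The list values are not corrected for it, so blastomere 2 of embryo 7 is not ranked here. Rpl3, the member of the list with the highest excess in both embryos, had 1453, 734, 828 and 1239.9 CPM in embryo 7 and 1017, 950.2, 1366 and 1680.4 CPM in embryo 6, where its blastomere 3 was above 1 and 2 and so departed from the list.

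Mitochondrially encoded mRNAs were the most tightly joined, at 0.91 in embryo 7 (0.78 with blastomere 2) and 0.79 in embryo 6. Their mean deviation was 0.14, -0.34, -0.26 and 0.12 in embryo 7 and 0.21, -0.14, -0.23 and 0.16 in embryo 6, so that blastomeres 1 and 4 were above 2 and 3 in each embryo. mt-Nd5, a subunit of complex I, had 1955, 1678, 1463 and 2007 CPM in embryo 7 and 3402, 2559, 2438.5 and 3506 CPM in embryo 6. mt-Cytb, of complex III, had 10673, 6383, 7185 and 10208 CPM in embryo 7 and 7421, 7341, 7314 and 9621 CPM in embryo 6. The nuclear genes of oxidative phosphorylation were less tightly joined, with a mean correlation of 0.10 in embryo 7 and 0.25 in embryo 6, against 0.00 and 0.05 for all genes. Their mean deviation was -0.04, -0.14, -0.05 and 0.09 in embryo 7 and -0.01, 0.04, -0.24 and 0.21 in embryo 6. Among the deep sisters of embryo 7 blastomere 4 was thus above 1 and 3, which were nearly level. The -0.14 of blastomere 2 of embryo 7 was close to the -0.15 of all measured genes in that library. In embryo 6 blastomere 2 was above 1.

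Cholesterol genes (5 measured; 0.69 in embryo 7, 0.22 in embryo 6) and glycolysis genes (5 measured; 0.23 in embryo 7, 0.30 in embryo 6) were the other lists with a mean correlation over 0.2 in both. With the shallow sister, glycolysis was at -0.04 in embryo 7. With DESeq2 size factors the lower of the 2 values was 0.19 for cholesterol and 0.14 for glycolysis. Without blastomere 2 of embryo 6 it was -0.01 for cholesterol and 0.19 for glycolysis, and without blastomere 3 it was 0.14 for cholesterol, so neither list is above 0.2 under all settings. Histones had 0.58 in embryo 7 and 0.10 in embryo 6. At 2.404 M counts, 80 ribosomal proteins had mean correlations of 0.472 in embryo 7 and 0.535 in embryo 6, against 0.0177, 0.139 and 0.349 in the 3 batch 1 embryos. The 7 mitochondrial mRNAs had 0.928 in embryo 7 and 0.827 in embryo 6, against 0.914, 0.590 and 0.891 in batch 1, so that their joint movement is not particular to batch 2. At that depth the maternal oocyte list (6 measured) had 0.640 in embryo 7 and 0.441 in embryo 6, against 0.0392, 0.565 and 0.00799 in batch 1. At full depth that list (7 measured) had 0.13 in embryo 7 and 0.37 in embryo 6.

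**Figure D5:**
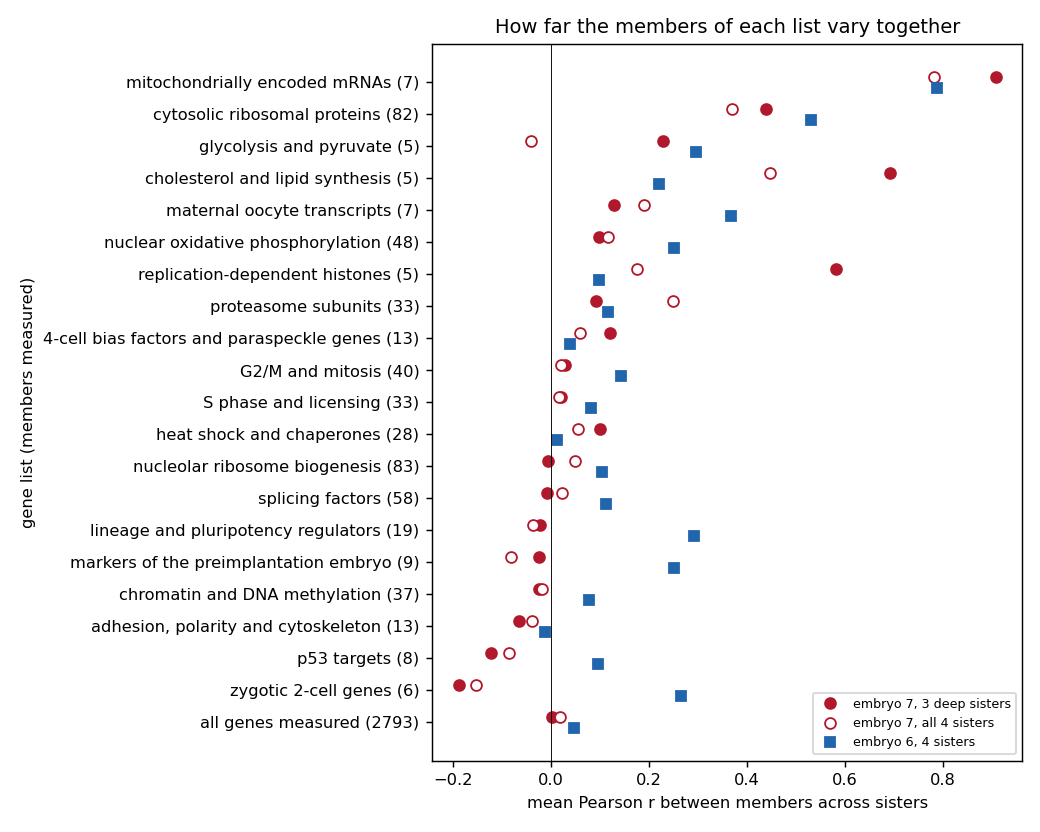
Mean Pearson correlation between the measured members of each gene list across the 3 deep sisters of embryo 7 (filled circles), all 4 sisters of embryo 7 (open circles) and the 4 sisters of embryo 6 (squares), for lists with 5 or more measured members. Ribosomal protein and mitochondrial mRNAs move together in both embryos, at 0.44 and 0.91 in embryo 7 and 0.53 and 0.79 in embryo 6.

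Between the embryos, 369 genes (13.2%) were higher in every deep sister of embryo 7 than in every sister of embryo 6, and 197 (7.05%) were lower. With blastomere 2 included, 231 and 155 of these remained. For the median gene 22.6% of the variance lay between the embryos, and in 37 genes over 90% did. This compares an embryo with an embryo and has no test. The genes below are those with the largest difference, by a rule added after values were seen. Hmgn2, a nucleosome-binding protein gene, had 260.4, 151, 388 and 243 CPM in embryo 7 and 65.5, 53.9, 63.5 and 53.003 CPM in embryo 6, a difference of 2.31 on the log2 scale. Snapc5, a subunit of the complex that starts small nuclear RNA transcription, had 208, 142, 199.7 and 247 CPM in embryo 7 and 32.9, 47.0, 53.1 and 75.9 CPM in embryo 6. In both genes the lowest sister of embryo 7 was well above the highest of embryo 6.

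Pramel4, Rpl29, Ftl1, Sgk1, Cdkn1a and Zfp981 followed, with differences of 2.12, 2.06, 1.99, 1.94, 1.84 and 1.82. Cdkn1a was the only gene of the 60 of high spread whose embryos did not overlap. On the lower side, Rtn4, which shapes the endoplasmic reticulum, had 86.6, 71.4, 88.4 and 66.7 CPM in embryo 7 and 356, 280.0, 287 and 246 CPM in embryo 6, a difference of -1.86. Bdp1, a subunit of the RNA polymerase III factor TFIIIB, had 71.0, 118, 59.4 and 78.2 CPM in embryo 7 and 230.2, 201, 208 and 194 CPM in embryo 6. Over the deep sisters of embryo 7 and the sisters of embryo 6, 96.0% of the variance of Rtn4 and 97.4% of that of Bdp1 lay between the embryos, while the shallow blastomere 2 was the highest sister of embryo 7 for Bdp1. Of the peroxiredoxin gene Prdx6, embryo 7 had 44.6, 13.2, 47.5 and 60.3 CPM and embryo 6 had 161, 167, 143 and 96.2 CPM.

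The last comparisons set batch 2 against the other separated embryos, at 2.404 M counts and over 931 genes measured in all of them. The mean sister correlation was 0.940 in each of embryos 7 and 6, against 0.787, 0.759 and 0.821 in batch 1. Batch 2 averaged 0.940 ± 0.000264 (SD, n = 2) and batch 1 0.789 ± 0.0311 (n = 3), and with 10 regroupings of embryos the two-sided exact permutation p of 0.1 is the smallest possible. The median SD among sisters was 0.2505 on average in batch 2 and 0.506 in batch 1, with the same p of 0.1. The 2-cell embryos had 0.803, 0.806, 0.720, 0.818 and 0.841, an average of 0.798 ± 0.0458 (n = 5), and the difference of 0.142 to batch 2 had an exact permutation p of 0.0476, the smallest of 21 regroupings. At a minimum of 200 CPM that difference was 0.0191 (exact permutation p = 0.286). At the same minimum the difference to batch 1 was 0.0238 (exact permutation p = 0.2). Depth and the number of genes detected go with the batch. All 2-cell embryos were of batch 1, so in the comparison of batch 2 with them batch and stage cannot be told apart.

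Gene by gene, the spread was compared over embryos with limma on log2 SD, for 1544 genes. In batch 2 it was lower than in batch 1 for 125 genes (8.10%) and higher for 0 (0%) at a Benjamini-Hochberg adjusted p under 0.05, and 496 genes had an unadjusted p under 0.05. The median log2 ratio of SD over all genes was -1.14, so the shift is general, and 774 genes had a lower SD in both batch 2 embryos than in all 3 of batch 1. The lowest ratios among those called include Exosc5, an exosome subunit, at -3.86 (limma adjusted p = 0.0256), the glycosylation enzyme gene Pmm2 at -3.75 (limma adjusted p = 0.0256) and the chromatin remodeller gene Bptf at -3.59 (limma adjusted p = 0.0372). These 3 are named after their values were seen. The count rests on few embryos and fell to 0 without embryo 7, without batch 1 embryo 3 or with the shallow blastomere 2 included. Of the 60 genes of high spread in both batch 2 embryos, those measured in batch 1 (34 to 38) were in the top decile there in 8.82, 13.2 and 8.57%, and those measured in 2-cell embryos (24 to 29) in 8.33 to 13.8%, beside 10% of all genes by construction.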

How the data were processed

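Libraries were made, per the labels' protocols, by Smart-seq2 from total RNA, with oligo-dT priming, template switching, PCR before sequencing and tagmentation. Per the submitters' processing notes, Trim Galore 0.6.10, STAR 2.7.3a, RSEM 1.2.28 and the build GRCm38 (mm10) were used, while the annotation and strandedness are not given in the sources used here. Without strand, reads of overlapping or antisense genes cannot be told apart. The authors deposited these RSEM values as estimated counts per gene, an expected count that shares out ambiguous reads, and 12.6% of the values above 0 carry decimals. All were rounded to whole numbers here. Of 55487 genes 23964 had a count in the 8 libraries, and 0 pairs of libraries were identical.

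Counts were scaled by TMM over the 8 libraries (edgeR 4.0.16) and turned into log2 CPM with a prior count of 2. Spread, excess (lowess span 0.3 on mean log2 CPM) and top decile are defined in the report, and use the 7 deep libraries and genes of mean CPM of at least 50 in both embryos. Library totals, genes, markers and shares of RNA are per total counts. Thinning drew counts at random with the seed 20. Batches were compared by two-sided exact permutation tests over embryos and by limma 3.58.1 on log2 SD with Benjamini-Hochberg adjustment. Nothing in the labels ties the embryos to separate animals or litters, so p-values measure the spread between these embryos only. The count of genes of high spread in both embryos and the limma comparison were tried on simulated data. The permutation test was checked on a fixed example, and the other values were not tried on simulated data.

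The members, the gene lists and the tests were chosen with earlier results of these data known. Genes named are the 10 of highest and the 6 of lowest excess spread in both embryos, up to 3 members of each list, 6 at each end of the first axis and the 6 pairs of high-spread genes with the highest smaller correlation, and predicted genes were left out. Others are said to be chosen after their values were seen. Alternatives were all 8 libraries, DESeq2 size factors, CPM per total counts, thinned counts, other CPM minimums, a prior count of 0.5, a lowess span of 0.6, the coefficient of variation, Spearman correlation, the top 5% and each blastomere or embryo left out. Annotation came from GENCODE M21 and promoters from RefSeq (GRCm38.p6). R 4.3.3, Python 3.11.15, numpy 2.4.6, pandas 2.3.3 and matplotlib 3.10.9 were used.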

Additional observations from a re-analysis of the deposited data

Results flagged for a closer look

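Among 190 groups (the 4 sisters of each embryo for named genes and library values, and the 5 separated 2-cell embryos), 9 held a sister far from the other 3 by Dixon's test, where chance gives about 1 in 20 groups. In embryo 7, blastomere 2 was lowest for Fam45a at 77.5 CPM, blastomere 4 was highest for Rpl34, a ribosomal protein gene, at 556 CPM, and blastomere 1 was lowest for the histone gene H4c4 at 75.1 CPM. Also in embryo 7, blastomere 3 was lowest for the nucleolar helicase gene Ddx49 at 107 CPM and for Amhr2 at 37.2 CPM, and blastomere 4 was lowest for the X-linked demethylase gene Kdm6a at 79.8 CPM. In embryo 6, blastomere 4 was highest for mt-Cytb at 9621 CPM, blastomere 3 was lowest for Ndufa8, a subunit of complex I, at 31.6 CPM, and blastomere 1 was lowest for Dld, a subunit of the pyruvate dehydrogenase complex, at 24.9 CPM.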

How the results depend on the processing

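The number of genes of high spread in both embryos (60) was 56 to 66 under other scalings, thinning, trends and with all 8 libraries, and 49 to 60 without 1 blastomere. It was 116 at a minimum of 10 CPM, 16 at 200 CPM, 184 with no minimum and 18 for the top 5%. The correlation of excess spread (0.08) was 0.132 with all 8 libraries, 0.124 with the 8 thinned, 0.19 with no minimum and 0.0144 to 0.0746 without 1 blastomere. That of the axes (0.00579) was 0.131 at 200 CPM and 0.00189 to 0.124 without 1 blastomere. The share of gene pairs that passed in both embryos and pooled (0.524%) was 0.198% with all 8 libraries, 0.835% at 200 CPM and 1.30 to 1.32% without 1 sister of embryo 6. Without a sister of embryo 7 pairs and list coherence were not computed, since 2 sisters give only perfect correlations. Lists with mean correlation over 0.2 in both embryos (4) were 2 with DESeq2 size factors and 2 to 4 without 1 sister of embryo 6. Genes without overlap between the embryos (20.3%) were 13.6% with all 8 libraries and 24.3 to 30.5% without 1 blastomere. The difference in sister correlation to 2-cell embryos (0.142, p = 0.0476 by exact permutation) was 0.0191 at 200 CPM and 0.123 to 0.153 without 1 embryo, where the exact permutation p was 0.0667 to 0.167 and cannot reach 0.05. Genes of lower spread in batch 2 by limma (125) were 1206 at 10 CPM, 0 at 200 CPM, 73 with a prior count of 0.5, 44 without thinning, 0 with the shallow blastomere and 0 to 113 without 1 embryo. Excess spread changed sign for Fam45a with all 8 libraries (0.95), for Ddx39 (-0.46) and Bex1 (-0.46) without embryo 7 blastomere 3 and for Rest without embryo 7 blastomere 4 (-1.41), and without 1 blastomere the highest values of these 3 were 1.496, 1.87 and 1.92. The difference to batch 1 (0.151) was 0.0238 at 200 CPM (exact permutation p = 0.2). Of 120 values for the 10 high-spread genes, 101 kept within the SD of the values without 1 blastomere, 16 moved and 3 changed sign. The values without 1 blastomere are among the 120, so a gene that depends on 1 sister has a wider margin. Of 72 for the 6 low-spread genes 53 kept, 18 moved and 1 changed sign, and of 158 list correlations 102 kept and 56 moved. The cause of these changes was not tested. No paired analysis was possible because the compared groups share fewer than 2 replicate numbers.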
